A study of Mus musculus with 7 samples.

Results

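The genes described here encode the core machinery that makes miRNAs and puts them to work. They are the 10 mouse genes *Drosha*, *Dgcr8*, *Xpo5*, *Dicer1*, *Ago1*, *Ago2*, *Ago3*, *Ago4*, *Tnrc6a* and *Tnrc6b*, out of 19938 genes measured on the array. They were chosen by name for their role and not by any measured value, though with earlier results of these data known. A probe set was assigned to a member when its only gene symbol was that of the member, older symbols included. All 10 members were found, with 2 probe sets for *Ago2* and 1 for each of the other members, which makes 11 probe sets, and none was removed by a filter on low signal.

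The cells were primary hepatocytes of C57BL/6J mice, which carry out most of the metabolic work of the liver. They received by transfection either a mimic of miR-709 or the control Cel-239b, a miRNA of a worm, at 1 µg each. Both groups therefore carried a transfected small RNA, and no untransfected cells were analysed here. Total RNA was harvested 24 h later and read on Affymetrix Mouse Gene 1.0 ST arrays, with 4 arrays for miR-709 (A to D) and 3 for Cel-239b (B to D). Nothing in the sources used here ties the replicates to separate mice or cultures, and a p-value then speaks only of the spread from array to array, which may be technical.

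In background, a primary miRNA transcript is cut in the nucleus by the Microprocessor, in which DROSHA is the nuclease and DGCR8 its RNA-binding partner. Exportin 5, encoded by *Xpo5*, carries the resulting hairpin to the cytoplasm, where DICER1 cuts it to a duplex. One strand is loaded into an Argonaute protein, which then recruits a GW182 protein (encoded by *Tnrc6a*, *Tnrc6b* or *Tnrc6c*), and GW182 in turn brings the deadenylation machinery to the mRNA. A transfected mimic enters this pathway at the loading step, since it is supplied as a ready duplex. Of the mammalian Argonautes, AGO2 is known for cleaving a fully matched target, and *Dicer1* is needed in liver for mature miRNAs of hepatocytes.

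The values are log2 signals after RMA, a procedure that brings all arrays to a common distribution. The median signal of an array was 5.04 to 5.07. Across probe sets, 2 arrays of the same treatment correlated at 0.9965 to 0.9979, and 2 arrays of different treatments at 0.9951 to 0.9966. Treatments were compared with limma over all 21789 probe sets that have 1 gene symbol, with Benjamini-Hochberg adjustment, and a difference was called at an adjusted p under 0.05. All differences below are miR-709 minus Cel-239b on the log2 scale. A gene with several probe sets was counted by the brightest one.

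One of the 10 members was called, *Ago2*, which was higher with miR-709. No member was called lower. Over all 19938 genes, 1.75% were called higher and 1.44% lower, so 1 call among 10 genes is a count from a very short list. At an unadjusted p under 0.05 there were 4 members, 3 of them higher and 1 lower, where the share over all genes was 14.9% (9.1% higher and 5.78% lower). The arrays of the treatments did not overlap for 3 members, against 12.3% of all genes. A mean log2 signal over 6 was found for 9 of the 10 members, but for only 8635 of all 19938 genes. The shares over all genes, here and below, are therefore not those of equally bright genes. With probe sets under a mean of 6 dropped, more genes were called, 349 lower and 534 higher. The median difference over the members was 0.04, against 0.01 over all genes, and 5 members lay above 0 and 5 below. The plot of signals by array shows each value behind these counts.

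**Figure D1:**
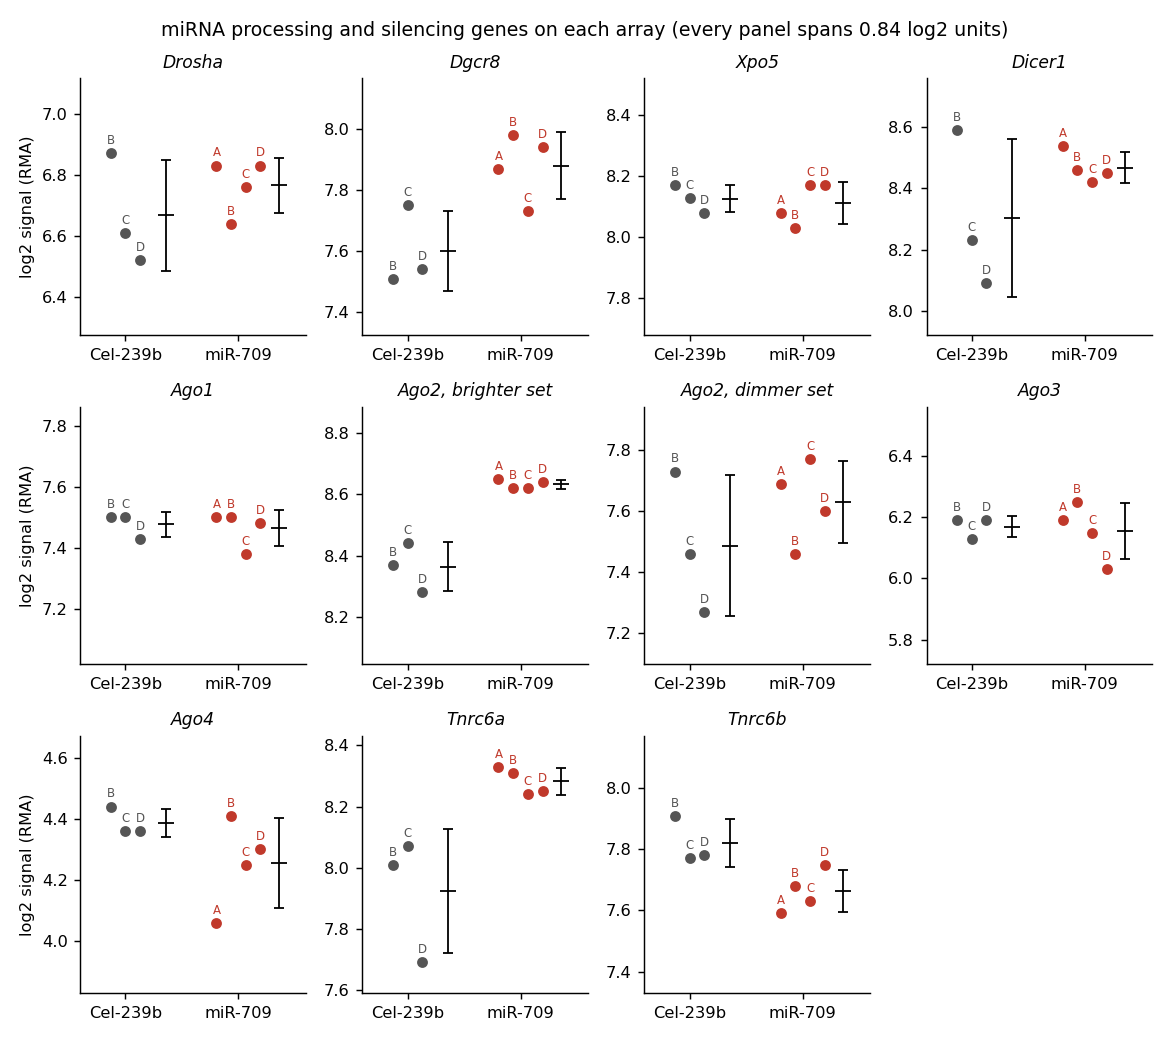
Log2 signal (RMA) of the 11 probe sets of the 10 genes on each array, grey for Cel-239b and red for miR-709, with the replicate letter above each point and the mean ± SD beside each group. Every panel spans the same range, and the miR-709 arrays of the brighter *Ago2* set (8.62 to 8.65) and of *Tnrc6a* (8.24 to 8.33) lie above all Cel-239b arrays.

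Among the Argonaute genes, *Ago2* had the only call. Its brighter probe set (10429329) read 8.37, 8.44 and 8.28 on Cel-239b arrays B, C and D, and 8.65, 8.62, 8.62 and 8.64 on miR-709 arrays A to D. All 4 miR-709 arrays lay above all 3 controls and within 0.03 of each other, while the controls spanned 0.16. The means were 8.36 ± 0.08 (SD, n = 3) and 8.63 ± 0.02 (SD, n = 4), a difference of 0.27 with a standard error of 0.057 and a 95% interval of 0.14 to 0.40. This is a 1.21-fold higher signal (95% interval 1.10 to 1.32), with an adjusted p of 0.0398 from limma.

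The *Ago2* call stood close to its threshold. Its difference kept its direction in 21 of 21 alternatives, at 0.21 to 0.31. Several of these change only the variance or the adjustment, so the difference could not turn in them. The brighter set was called in 7 of the 21, with adjusted p-values of 0.0161 to 0.232. Without any 1 of the 7 arrays the adjusted p from limma was 0.0521 to 0.105, so every array was needed for the call. The difference was 0.227 to 0.307 in these fits. Over all genes, too, fewer were called in each of them, 164 to 242 lower and 157 to 284 higher, against 287 and 349 with all arrays. The *Ago2* call was also lost after a second quantile normalization (adjusted p = 0.0694) and after cyclic loess between arrays (adjusted p = 0.077).

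The dimmer probe set of *Ago2* (10429327) did not separate the treatments. It read 7.73, 7.46 and 7.27 on Cel-239b arrays B, C and D, and 7.69, 7.46, 7.77 and 7.60 on miR-709 arrays A to D. Array B of Cel-239b was above 3 of the 4 miR-709 arrays, and the groups overlapped. The difference was 0.14 (standard error 0.11, 95% interval -0.11 to 0.40, adjusted p = 0.617 from limma), an interval that holds the value of the brighter set as well as 0. The mean of the 2 sets gave a difference of 0.21 for *Ago2*, with an adjusted p of 0.232 from limma.

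*Ago1*, which encodes another Argonaute that represses targets without cutting them, read 7.50, 7.50 and 7.43 on Cel-239b arrays and 7.50, 7.50, 7.38 and 7.48 on miR-709 arrays A to D. The groups overlapped, and array C of miR-709 was the lowest of all 7. The difference was -0.01, and its 95% interval of -0.14 to 0.12 leaves out a change as large as the fitted value of *Ago2*. *Ago3* likewise read 6.19, 6.13 and 6.19 against 6.19, 6.25, 6.15 and 6.03, with a difference of -0.02 (95% interval -0.16 to 0.13).

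*Ago4* was the dimmest member, with 4.44, 4.36 and 4.36 on Cel-239b arrays and 4.06, 4.41, 4.25 and 4.30 on miR-709 arrays A to D. These values lie below the median signal of every array, and a dim probe set carries little information on its gene. The groups overlapped through array B of miR-709, and the difference was -0.13 (95% interval -0.32 to 0.05, adjusted p = 0.521 from limma). In the RefSeq annotation (assembly GRCm38.p6), *Ago3*, *Ago1* and *Ago4* are direct neighbours in the genome, and *Ago2* lies on another chromosome between *Chrac1* and *Ptk2*.

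Because the fits of single genes do not compare them with each other, the shift of *Ago2* was also set against each relative within every array. The log2 signal of *Ago2* minus that of *Ago1* was higher with miR-709 by 0.28 (standard error 0.038). Against *Ago3* the shift was 0.28 (standard error 0.079), and against *Ago4* it was 0.40 (standard error 0.10). In each of these comparisons the arrays of the treatments did not overlap. Since the arrays of the brighter *Ago2* set had already been seen to separate, this outcome was largely fixed in advance. The shifts against the relatives are therefore given as a description with no test. Between the brighter and the dimmer set of *Ago2* itself the shift was 0.13, with a 95% interval of -0.20 to 0.45. The exact permutation test over 35 regroupings (two-sided) gave p = 0.371 for it. All these pairs were chosen after the values of *Ago2* had been seen, so this p-value describes a selected gene.

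Both GW182 genes among the members separated the treatments, in opposite directions, without a call. *Tnrc6a* read 8.01, 8.07 and 7.69 on Cel-239b arrays B, C and D, and 8.33, 8.31, 8.24 and 8.25 on miR-709 arrays A to D. The miR-709 arrays lay above all controls, and array D of Cel-239b stood well below the other two. The means were 7.92 ± 0.20 (SD, n = 3) and 8.28 ± 0.04 (SD, n = 4). The difference of 0.36 (standard error 0.090, 95% interval 0.16 to 0.56) was the largest of the 11 probe sets and had an adjusted p of 0.079 from limma. Without array D of Cel-239b it was 0.24, with an adjusted p of 0.0839. *Tnrc6a* passed the threshold in 2 of 21 alternatives, those that left out probe sets whose mean log2 signal was under 5 (adjusted p = 0.0421) or under 6 (adjusted p = 0.0326), where fewer probe sets entered the adjustment.

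*Tnrc6b* had the lower values with miR-709. Its Cel-239b arrays read 7.91, 7.77 and 7.78, and its miR-709 arrays A to D read 7.59, 7.68, 7.63 and 7.75. The highest miR-709 array lay just under the lowest control. The difference was -0.16 (standard error 0.064, 95% interval -0.30 to -0.01), with an adjusted p of 0.295 from limma. Set against each other within arrays, *Tnrc6a* minus *Tnrc6b* was higher with miR-709 by 0.52 (standard error 0.11, 95% interval 0.23 to 0.80). Since the arrays of each gene had already been seen to separate, in opposite directions, their difference had to separate as well, and this shift is given as a description with no test. The shift was computed under 20 of the 21 alternatives, where it was 0.42 to 0.62.

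**Figure D2:**
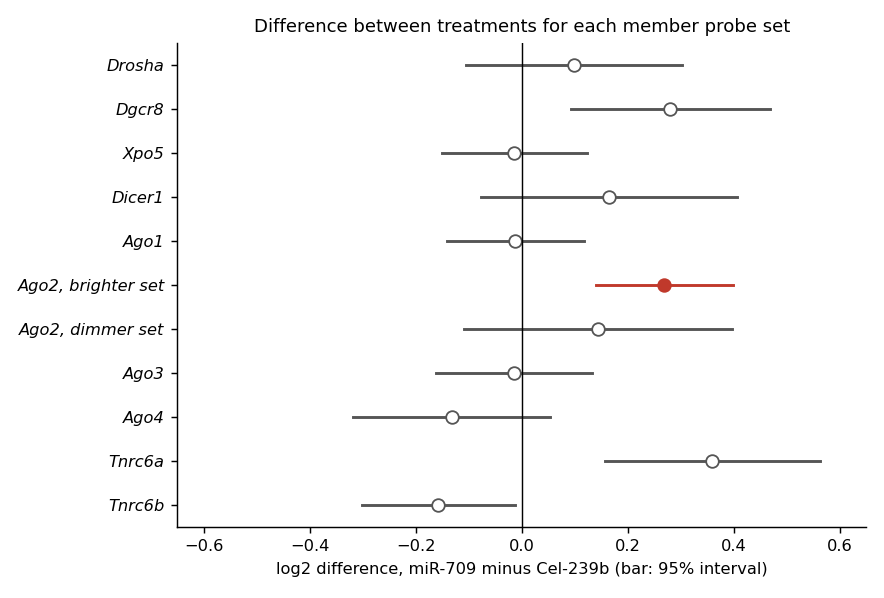
Difference in log2 signal, miR-709 minus Cel-239b, for the 11 probe sets in the order of the pathway, with 95% intervals of single probe sets from limma. The filled red point is the brighter *Ago2* set (0.27, adjusted p = 0.0398), the only one called, and the intervals of *Dgcr8*, *Tnrc6a* and *Tnrc6b* also leave out 0 before adjustment.

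In the nuclear step, *Dgcr8* had the higher values with miR-709. It read 7.51, 7.75 and 7.54 on Cel-239b arrays B, C and D, and 7.87, 7.98, 7.73 and 7.94 on miR-709 arrays A to D. Only array C of Cel-239b, at 7.75, and array C of miR-709, at 7.73, crossed. The means were 7.60 ± 0.13 (SD, n = 3) and 7.88 ± 0.11 (SD, n = 4). The difference of 0.28 (standard error 0.083, 95% interval 0.09 to 0.47) was as large as that of *Ago2*, but its arrays were more spread, and its adjusted p was 0.136 from limma.

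*Drosha*, the partner of *Dgcr8* in the Microprocessor, read 6.87, 6.61 and 6.52 on Cel-239b arrays B, C and D, and 6.83, 6.64, 6.76 and 6.83 on miR-709 arrays A to D. Array B of Cel-239b was above every miR-709 array. The difference was 0.10 (95% interval -0.11 to 0.30, adjusted p = 0.68 from limma), so neither 0 nor the value of *Dgcr8* lies outside its interval.

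For the export step, *Xpo5* read 8.17, 8.13 and 8.08 on Cel-239b arrays and 8.08, 8.03, 8.17 and 8.17 on miR-709 arrays A to D. The groups overlapped, and array B of miR-709 was the lowest of all 7. Its difference of -0.01 had a 95% interval of -0.15 to 0.12, which bounds any change of this probe set to a small size.

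*Dicer1* showed the widest spread among the controls. Its Cel-239b arrays B, C and D read 8.59, 8.23 and 8.09, a range of 0.50, while its miR-709 arrays A to D read 8.54, 8.46, 8.42 and 8.45, a range of 0.12. Array B of Cel-239b was the highest of all 7. The difference was 0.16 (standard error 0.11, 95% interval -0.08 to 0.41, adjusted p = 0.539 from limma). It depended on which control was kept, at 0.31 without array B of Cel-239b (adjusted p = 0.0812) and 0.06 without array D (adjusted p = 0.827).

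The controls differed from each other in a like order for most member probe sets. Array B of Cel-239b held the highest control value in 8 of the 11 member probe sets, ties included, and array D of Cel-239b held the lowest in 8 of 11. The 3 control arrays share 1 label and differ only in replicate letter, and what set B and D apart was not tested.

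For the 10 probe sets without a call, the 95% intervals together ran from -0.32 to 0.56. Among probe sets of any gene, 3.16% were called, and the median standard error of a difference was 0.076. With the methods' t-test, which does not moderate variances, 4 members had an unadjusted p under 0.05, against 12.5% of all genes. The adjusted p of the brighter *Ago2* set was then 0.0738, and no member was called.

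The genes that act beside the members were taken from 5 lists by role, of which 62 of 64 genes had a probe set of their own. *Hnrnpa1* was read only by probe sets that it shares with other genes, and no probe set was paired with *Hsp90ab1* here. Of the 62 genes, 2 were lower, 1 was higher and 59 were not called, where 1.44% of all genes were lower and 1.75% higher. The median difference was 0.04, against 0.01 over all genes. The arrays of the treatments did not overlap for 15 of the 62 genes, against 12.3% of all genes. As 58 of the 62 genes had a mean log2 signal over 6, these shares too are not those of equally bright genes.

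**Figure D3:**
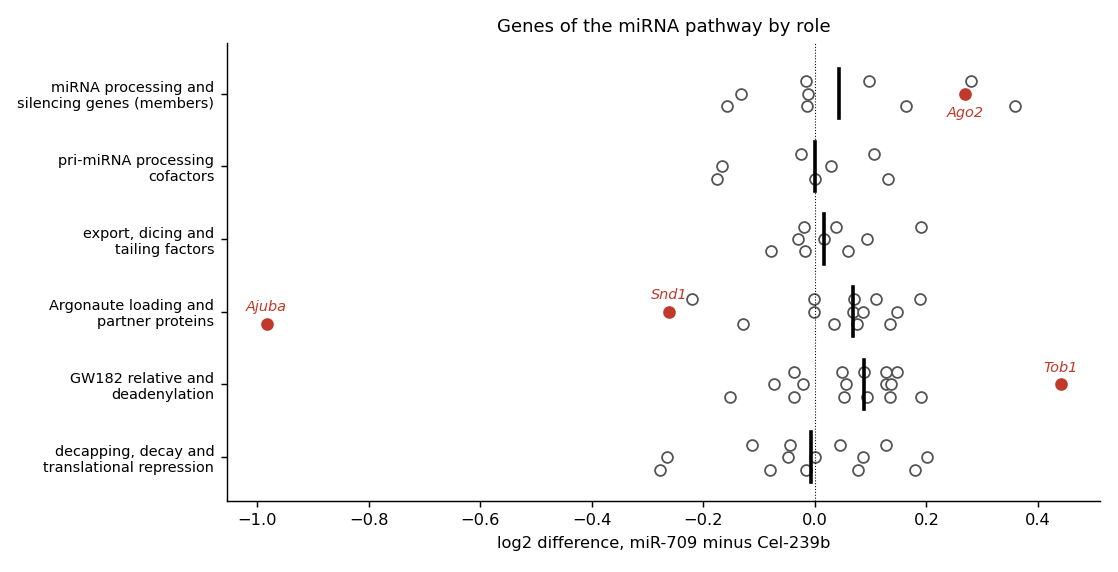
Difference in log2 signal, miR-709 minus Cel-239b, for the 10 members and for the genes of the 5 other lists, 1 point per gene at its brightest probe set, with a black line at each list's median. Points are spread vertically for legibility only. Filled red points are called genes, *Ago2* (0.27) and *Tob1* (0.44) higher, *Ajuba* (-0.98) and *Snd1* (-0.26) lower.

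The largest change of the pathway was in a partner of the Argonautes. *Ajuba* encodes a LIM-domain protein of cell junctions that is also known to bind Argonautes and to join them to the cap-binding complex. It read 10.04, 10.15 and 10.09 on Cel-239b arrays and 9.14, 9.18, 8.98 and 9.14 on miR-709 arrays A to D. Every miR-709 array lay far below every control, and the fitted value fell by 0.98 on the log2 scale (standard error 0.066), to 0.506 of the control signal, with an adjusted p of 1.4e-04 from limma. It was called in 21 of 21 alternatives, with an adjusted p of at most 0.0159. Its relatives *Limd1* and *Wtip* had adjusted p-values of 0.994 and 0.535 and were not called.

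*Snd1*, a nuclease known as a component of the silencing complex, read 10.11, 10.06 and 10.14 against 9.92, 9.82, 9.77 and 9.86. The groups did not overlap, and it fell by 0.26 (standard error 0.058, adjusted p = 0.0483 from limma). The *Snd1* call was kept in 8 of 21 alternatives and was lost when any 1 array was left out. *Zswim8*, the adaptor of target-directed miRNA decay, came next in this list with a difference of -0.22 and no call (adjusted p = 0.268). The other genes of the list, 13 of 15 in all without a call, include the chaperones that load Argonaute.

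Among deadenylation factors, *Tob1*, which links the CCR4-NOT deadenylase to mRNAs, rose. It read 10.02, 10.01 and 9.93 on Cel-239b arrays and 10.43, 10.47, 10.38 and 10.43 on miR-709 arrays A to D. The groups stood well apart, with a difference of 0.44 (standard error 0.055). The adjusted p from limma was 0.00285, and the call was made in 21 of 21 alternatives. The other 16 of 17 genes of this list were not called. *Cnot6*, a catalytic subunit of the deadenylase, had a difference of 0.19 (adjusted p = 0.227), and *Pan3*, of the second deadenylase complex, had -0.15 (adjusted p = 0.54). The list's median was 0.09.

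None of the 7 cofactors of the nuclear step, of the 9 export, dicing and tailing factors or of the 14 decapping and repression factors was called with limma. At an unadjusted p under 0.05 there were 1, 1 and 4 of them, in that order, where the share over all genes was 14.9%. In the nuclear list the largest differences were those of *Khsrp* (-0.18), a protein that binds the loop of some precursors, of the helicase *Ddx5* (-0.17) and of the cap-binding protein *Ncbp2* (0.13). For dicing and tailing they were those of *Tut7* (0.19), a uridylating enzyme, of the *Dicer1* partner *Tarbp2* (0.09) and of *Ran* (-0.08), which drives nuclear export. The other probe sets of *Ddx5* and *Tarbp2* had differences nearer to none, at -0.06 and -0.02. Among decapping and repression factors, *Dcp1a* had -0.28 (adjusted p = 0.268), *Lsm14b* had -0.27 (adjusted p = 0.0555, and called lower in 4 of 21 alternatives) and the helicase *Ddx6* had 0.20 (adjusted p = 0.1).

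The germline relatives of the Argonautes were dim. *Piwil1*, *Piwil2* and *Piwil4* had mean log2 signals of 4.02, 4.17 and 3.73, below the median of each array, and none was called. *Rfx1*, the gene that contains the miR-709 precursor in the RefSeq annotation, read 6.51 to 6.53 on Cel-239b arrays and 6.53 to 6.72 on miR-709 arrays. Its difference was 0.08 (adjusted p = 0.612 from limma).

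The genes whose log2 signals ran most like those of the brighter *Ago2* set over the 7 arrays were *Gid4* (Pearson r = 0.989), *Miga1* (r = 0.986) and *Kdm1b* (r = 0.985). They were called higher as well, with differences of 0.54, 0.47 and 0.26. These correlations contain the difference between treatments and are given as a description. As many as 62 genes had an r over 0.95 with *Ago2*.

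Other gene lists moved between arrays, as the plot of lists by array shows. The 20 interferon-stimulated genes measured, which respond to foreign RNA, had a mean deviation from the Cel-239b mean of -0.17, -0.03 and 0.20 on Cel-239b arrays B, C and D, and of -0.11, -0.05, 0.77 and 0.79 on miR-709 arrays A to D. Arrays C and D of miR-709 thus stood apart from A and B, and none of the 20 genes was called. The brighter *Ago2* set showed no such split, and without arrays C and D of miR-709 its difference was 0.27 with an adjusted p of 0.213 from limma. *Tnrc6a* and *Dgcr8* differed by 0.40 and 0.33 without these arrays, with adjusted p-values of 0.306 and 0.27. Any part of the interferon-stimulated genes in these differences was not tested.

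**Figure D4:**
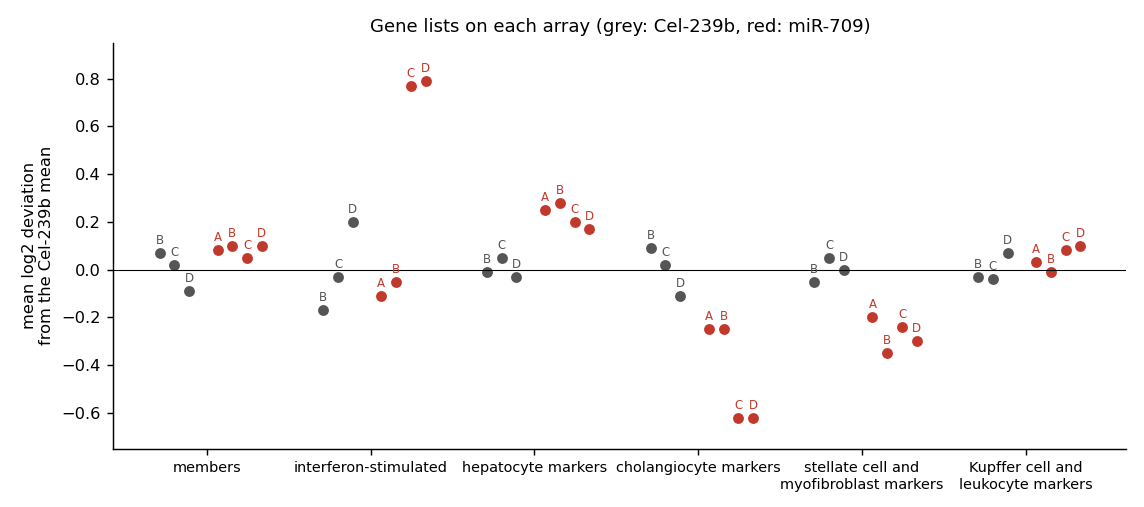
Mean deviation of each list's log2 signals from the Cel-239b mean, by array, with grey points for Cel-239b, red points for miR-709 and the replicate letter above each. The members span -0.09 to 0.10, while the interferon-stimulated genes reach 0.77 and 0.79 on arrays C and D of miR-709.

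Hepatocyte markers were strong on all arrays, with a summed linear signal of 45887 to 47122 for Cel-239b and 47185 to 50085 for miR-709. Of the 10, 3 were called higher (*Cps1*, 0.683, *Hnf4a*, 0.566, and *Tat*, 0.615), where 1.75% of all genes were. *Alb* (-0.03), *Ttr* (0.01), *Apoa1* (0.03), *Trf* (0.05), *Fgb* (0.03), *Asgr1* (0.03) and *Cyp2e1* (0.25) were not called. Of the cholangiocyte markers, 1 of 4 was lower (*Krt19*, -1.23), with sums of 1016 to 1165 and 463 to 776. *Krt7* (-0.29), *Sox9* (-0.30) and *Epcam* (0.09) were not called. Of the stellate cell and myofibroblast markers, 1 of 5 was lower (*Acta2*, -1.34), with sums of 324 to 342 and 183 to 218. *Des* (0.10), *Col1a1* (-0.08), *Lrat* (-0.02) and *Pdgfrb* (-0.03) were not called. Both sums thus mostly follow 1 bright gene and do not stand for the whole list. None of the 5 endothelial markers, with sums of 182 to 194 and 184 to 195, and none of the 5 Kupffer cell and leukocyte markers, with sums of 1452 to 1791 and 1619 to 1871, was called. A mean log2 signal over 6 was found for 0 of 5 endothelial markers and for 1 of 5 Kupffer cell and leukocyte markers (*Cd68*, 10.67). The dim ones carry little information on their genes. The part of these lists in the values of *Ago2*, *Tnrc6a*, *Ajuba* and *Tob1* was not tested, and in such bulk RNA fewer cells of a type and less RNA per cell cannot be told apart.

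**Figure D5:**
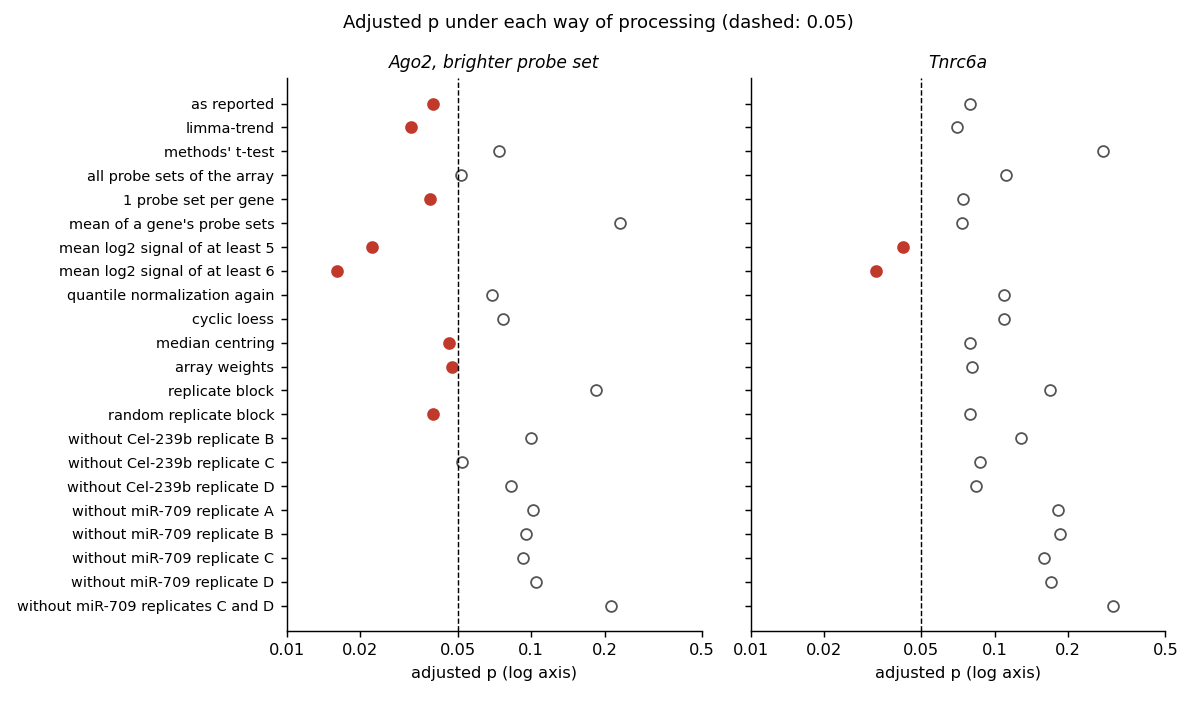
Adjusted p of the brighter *Ago2* set and of *Tnrc6a* as reported and under 21 alternatives, on a log axis, with a dashed line at 0.05 and filled red points below it. *Ago2* lies below the line in 7 alternatives and *Tnrc6a* in 2, and both lie above it whenever an array is left out.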

How the data were processed

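The authors deposited log2 signals per probe set, which the submitters' processing notes credit to RMA in Partek, in versions not given in the sources used here. RMA corrects background, equalises the distribution of signals between arrays and combines the probes of a set. Probe sets were named through the platform annotation, with symbols updated by gene number for 21698 of them. Of 28853 probe sets, 21789 had 1 symbol, 1621 had several and 5443 had none. Treatments were compared with limma (version 3.58.1, R version 4.3.3), two-sided, with no covariate and moderated variances. The fit was also tested on simulated data. The differences planted there were larger than that of any member, so this does not tell how often differences of the members' size are found. The study's methods name a 1-way ANOVA on log2 signals, used here as an alternative. The number of arrays limits the precision.

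Named are all members with every probe set, every called gene and the 3 largest differences in each of 5 pathway lists, *Rfx1*, the germline relatives, and the 3 genes most correlated with the member of lowest p. *Limd1*, *Wtip* and the named marker genes were added with their values in view. The members and lists were chosen with earlier results of these data known. Settings also tried were the methods' t-test, limma-trend, other sets and averages of probe sets, filters on signal, scalings between arrays, array weights, the replicate letter as a block, and arrays left out. The comparisons of genes within arrays and the exact permutation test were added after seeing the data. No array files other than the table of processed values were used, so background correction could not be varied.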

Additional observations from a re-analysis of the deposited data

Results flagged for a closer look

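In 30 groups of 4 miR-709 arrays, for the probe sets of the members, the genes named from the 5 pathway lists, the germline relatives and *Rfx1*, a single array stood apart from the other 3 in 3 groups by Dixon's test at 95%, where chance flags about 1 in 20. *Ago1* was lowest on array C of miR-709, at 7.38. *Tarbp2* was lowest on array D of miR-709, at 7.46. *Dcp1a* was lowest on array B of miR-709, at 5.88. Each flag is on a different array, and none of these probe sets was called.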

How the results depend on the processing

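Calls among the members depended on the processing. Member genes called higher, 1 as reported, and the member probe sets called, also 1, were 0 with the methods' t-test, with all probe sets of the array, after a second quantile normalization, after cyclic loess and without arrays C and D of miR-709, and both were 2 where probe sets under a mean log2 signal of 5 or of 6 were dropped. Averaging the probe sets of a gene gave 0 member genes higher. Leaving out 1 array gave 0 to 0 for both. Pathway genes lower, 2 as reported, were 1 with the methods' t-test, all probe sets, median centring, array weights and without arrays C and D, and 1 to 1 when leaving out 1 array, *Snd1* being the gene lost. They were 3 after a second quantile normalization, after cyclic loess and where probe sets under 5 or under 6 were dropped, with *Lsm14b* added (adjusted p of 0.0398, 0.0351, 0.0313 and 0.0231, in that order). Pathway genes higher, 1 as reported, were 2 with limma-trend and with probe sets under 6 dropped, with *Ddx6* added. No member gene was called lower in any alternative. The direction turned for 5 genes with differences near 0. When leaving out 1 array, *Ago1* ran from -0.035 to 0.017 (positive without array C of miR-709), *Ago3* from -0.047 to 0.027 (without D of miR-709), *Xpo5* from -0.038 to 0.013 (0.013 without B of miR-709 and 0.007 without B of Cel-239b), *Ran* from -0.123 to 0.007 (without B of Cel-239b) and *Piwil1* from -0.088 to 0.027 (without C of Cel-239b). Without arrays C and D of miR-709, *Ago1* was 0.023 and *Ago3* 0.050.

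With the replicate letter as a block, member genes higher and member probe sets called were 0, pathway genes lower 1, and the brighter *Ago2* set differed by 0.263 (adjusted p = 0.184 from limma). Same-letter deviations correlated at 0.008, 0.010 and 0.047, and those of different letters at -0.059 to 0.084. These values show no sign of pairing, but so few shared letters cannot exclude it. The sources used here do not say whether the letters pair the arrays. Over all genes the block left 194 lower and 154 higher, against 287 and 349. The filters on signal removed *Ago4*, and the causes of the other changes were not tested.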
